A study of Mus musculus with 219 samples.

Results

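Twin blastocysts, each formed by 1 blastomere after a mouse 2-cell embryo had been cut apart, were compared with blastocysts of embryos that were left whole. The libraries were chosen by their labels alone, as those labelled twin or intact, which gave 69 of the 219 libraries of the series. Of these, 38 were twins from 19 pairs and 31 were intact blastocysts. The counts of twins a and b of a pair were added, so that a pair stood for 1 embryo and 50 embryos entered the comparison. All came from B6C3F1 oocytes injected with a CD1 sperm head (intracytoplasmic sperm injection, ICSI), and the injection had been made opposite the meiotic spindle (Co), on its side (Is) or at the equator (Eq). There were 6 pairs and 11 intact blastocysts of Co, 7 and 8 of Is, and 6 and 12 of Eq.

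By the study's methods, the 2-cell embryos were bisected on the day after ICSI in a saline medium that differed from the culture medium, and the sister blastomeres left the zona pellucida and grew singly in wells of a plate. Bisection, loss of the zona, single culture and the handling that went with them cannot be told apart here. The hour at which the intact blastocysts were lysed was not found in the sources used here, so a difference in age or stage cannot be told apart from bisection either. All blastocysts were on the same plate, the intact ones in rows F to I and the twins in rows I to M, so the plate row went with the group.

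A blastocyst holds a few lineages with separate roles. The trophectoderm forms the outer wall, pumps fluid into the cavity and later makes the placenta, and its identity depends on factors such as Cdx2, Eomes, Gata3 and Tfap2c. The inner cells divide into the epiblast, the source of the fetus, which depends on Pou5f1, Nanog and Sox2, and the primitive endoderm, the source of the yolk sac lining, which depends on Gata6, Sox17 and Gata4 and lays down laminin and type IV collagen.

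The groups differed in depth. The added twin pairs held 1676976 to 3095134 counts (median 2200256) and the intact blastocysts 234099 to 1254428 (median 705837), with no overlap. Twin a alone differed less, with 865451 to 1612581 counts. Genes with at least 1 count numbered 13495 to 14501 in the pairs and 8264 to 12766 in the intact blastocysts. After each embryo was thinned at random to 234099 counts, the pairs still held 10767 to 11516 such genes and the intact blastocysts 8179 to 11349, a mean difference of 898 (2-sided permutation test, adjusted p = 4e-05, from the smallest p that 100000 resamples can give). The added counts were thinned, so a pair still pooled 2 libraries against 1. Pooling and a difference of the embryos cannot be told apart here, since 1 twin alone was not thinned.

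The log2 levels of a twin pair correlated with the mean of the other pairs at r = 0.924 to 0.961, across 9985 genes that share library and depth. In the intact group r ran from 0.721 to 0.918. A pair is the sum of 2 libraries and an intact blastocyst a single, shallower one, and the spread was not compared at one depth. Of the intact blastocysts, 7 held fewer than 10000 detected genes, 4 of them Co and 3 Eq, and 1 of these was deep, with 1147764 counts. All counts below are given with these 7 and, where it changes the picture, without them.

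**Figure D1:**
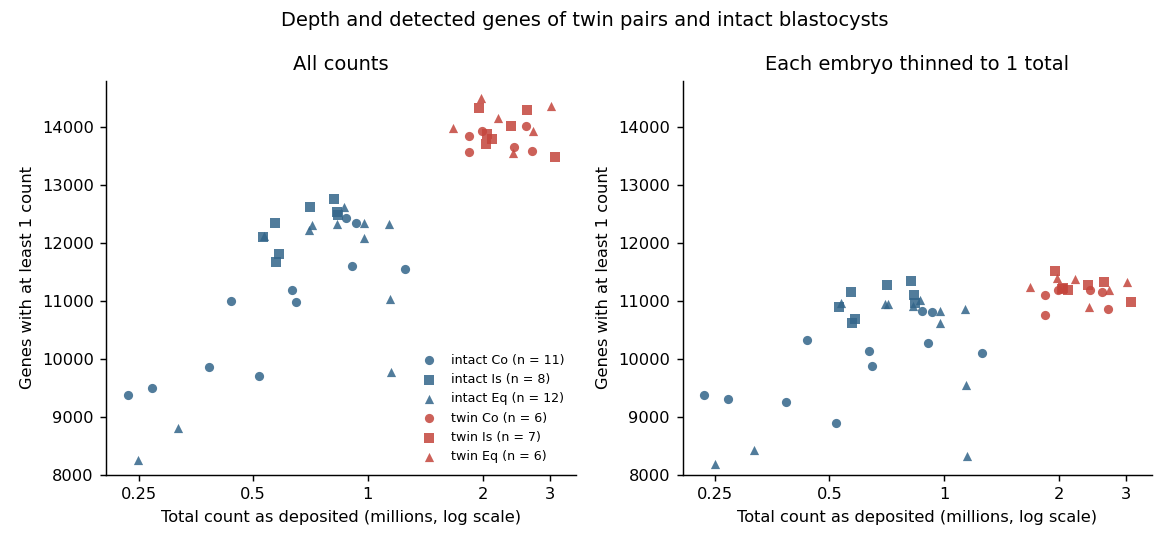
Genes with at least 1 count against the total count of each embryo (log scale), before (left) and after (right) each embryo was thinned to 234099 counts. Red points are the 19 twin pairs, blue points the 31 intact blastocysts, and shapes give the ICSI site. The pairs lie to the right of every intact blastocyst, and 7 intact blastocysts lie below 10000 genes on the left.

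With the ICSI site as covariate, 4163 of 9985 genes tested passed an adjusted p of 0.05 (edgeR quasi-likelihood test). Of all genes tested, 1987 (19.9%) were higher and 2176 (21.8%) lower in twins, with a median log2 fold change of -0.01. At least 2-fold differences were found for 743 genes higher (7.44%) and 822 lower (8.23%). The groups did not overlap at all for 16 genes higher (0.16%) and 21 genes lower (0.21%). Without the 7 intact blastocysts of few genes, 2438 genes were higher (23.7%) and 2600 lower (25.3%). When only twin a was used and both groups were held between 700000 and 1300000 counts (14 twins, 17 intact), 1531 were higher (14.9%) and 1610 lower (15.7%), and with twin b 1656 (16.3%) and 1785 (17.6%). Depth was bounded but not equal in this range, with medians of 1019088 counts for twin a and 1060310 for twin b against 874708 for the intact blastocysts. A fit with log10 total count as a further covariate left 552 higher (5.05%) and 931 lower (8.52%), and 1 with detected genes left 983 (8.74%) and 1448 (12.9%). With log10 total count and 1 twin of each pair, 978 were higher (8.9%) and 1360 lower for twin a, and 1063 (9.74%) and 1492 (13.7%) for twin b. Below, a fit with log10 total count or detected genes as covariate holds the added pairs, unless 1 twin is named. Neither measure overlapped between the groups there, so it could hardly be separated from group.

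Named first are the 12 largest increases and 12 largest decreases among genes with at least 20 CPM in the higher group that were also called with each twin alone and after thinning, leaving out predicted genes and pseudogenes. Mgarp, which encodes a mitochondrial protein (chromosome 3, 51388412 to 51396738, GRCm38), had 0 to 28.4 normalised CPM (counts relative to the TMM-scaled total of the library) in the intact blastocysts with a median of 0, and 25.7 to 140 in the pairs with a median of 67.3. In the intact group 19 of 31 libraries held no count of it, and 18 of 19 pairs lay above the highest intact blastocyst (log2 fold change 5.11 ± 0.39 SE, adjusted p = 6.4e-17). Aldh1l1, a folate enzyme, had 36.8 to 151 CPM in the pairs against 0 to 17.6 in the intact blastocysts, without overlap (4.05 ± 0.33). Alad, an enzyme of haem synthesis (chromosome 4, 62509169 to 62519918), had 180 to 334 CPM in the pairs and 0 to 83.01 in the intact blastocysts, again without overlap (2.71 ± 0.18, adjusted p = 4.6e-19).

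Bhmt, which remethylates homocysteine from betaine, stood at a median of 94.8 CPM in the pairs and 0 in the intact blastocysts (log2 fold change 3.98 ± 0.50), with 11 of 19 pairs above the highest intact blastocyst. Dppa3, an oocyte-derived protector of DNA methylation, had 305 to 654 CPM in the pairs (median 515) and 0 to 452 in the intact blastocysts (median 43.9), and 17 of 19 pairs lay above every intact blastocyst (2.80 ± 0.34). The rest of these 12 increases were Ceacam10, Tbx20, Prelid2, Wfdc15a, Depdc7, Msc and Chga, with log2 fold changes of 2.62 to 3.79. Tbx20 and Msc encode transcription factors and Chga encodes chromogranin A of secretory granules.

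In the opposite direction, Ctsll3, a cathepsin L-like protease gene (chromosome 13, 60798250 to 60802849), had 14.65 to 1102 CPM in the intact blastocysts (median 282) and 0 to 10.2 in the pairs, where 8 of 19 held no count (log2 fold change -7.32 ± 0.51, adjusted p = 5.7e-16). Every pair lay below every intact blastocyst. Slc40a1, the iron exporter ferroportin, had 14.6 to 1104 CPM in the intact blastocysts and 0.538 to 33.9 in the pairs (-5.20 ± 0.43). Cmklr1, the chemerin receptor, had 35.6 to 478 CPM against 0 to 11.3, without overlap (-4.87 ± 0.37). Ccnd2, cyclin D2, had a median of 34.1 CPM in the intact blastocysts and 0.487 in the pairs (-5.03 ± 0.60).

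Itga7, an integrin subunit that binds laminin, stood at medians of 75.6 and 2.15 CPM (log2 fold change -5.06 ± 0.46), and all 19 pairs lay below the intact median. S100a9, a calcium-binding protein gene, held no count in 16 of 19 pairs and had a median of 22.8 CPM in the intact blastocysts. Also among these 12 decreases were Snap91, a clathrin assembly factor, with medians of 277 and 13.6 CPM (-4.11 ± 0.36), and Igsf8, Stmn2, Nefl, Tmcc3 and Tsc22d3, with log2 fold changes of -4.43 to -3.73. All 24 of these genes passed the threshold in the same direction with twin a or twin b held to that range of counts and without the 7 intact blastocysts of few genes. They had been chosen as called with each twin alone and after thinning, from these same embryos. This agreement was therefore largely set in advance. With detected genes as covariate, Depdc7 (1.37) and Msc (0.03) did not pass. Of the 24, 13 did so with log10 total count as covariate, and all 24 kept their direction.

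**Figure D2:**
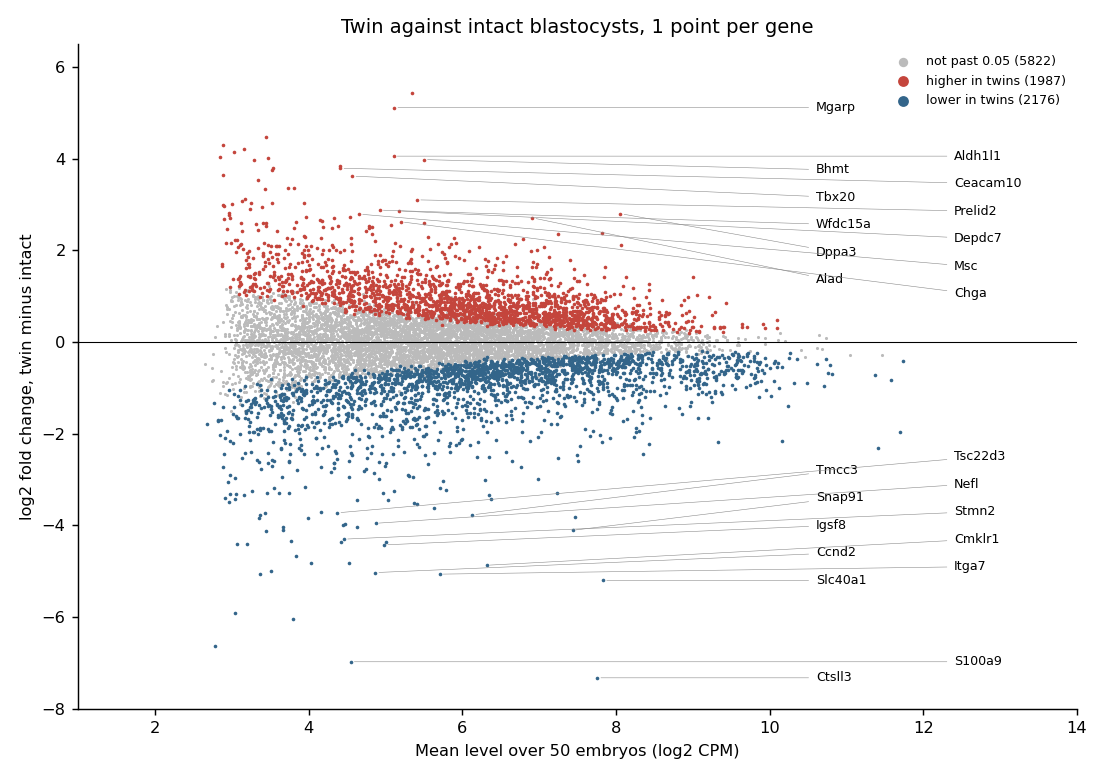
log2 fold change of twin pairs over intact blastocysts (vertical axis) against the mean level over 50 embryos (log2 CPM, horizontal axis), with 1 point for each of 9985 genes. Red points were higher (1987) and blue points lower (2176) in twins at an adjusted p of 0.05, grey points did not pass, and the 24 named genes are labelled. Differences reached further below 0 than above it, to -7.32 for Ctsll3.

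Among lineage genes, more of the epiblast list were higher than lower in twins, and more of the trophectoderm and primitive endoderm lists were lower than higher. In whole blastocysts, fewer cells of a lineage and less RNA per cell cannot be told apart. Of 23 epiblast and pluripotency genes tested, 11 were higher and 3 lower (19.9% and 21.8% among all genes), with a median log2 fold change of 0.66. Pou5f1, which encodes the core pluripotency factor Oct4 (chromosome 17, 35506018 to 35510772), had 15.2 to 135 CPM in the intact blastocysts (median 60.03) and 144 to 283 in the pairs (median 201). No pair overlapped with an intact blastocyst (log2 fold change 1.70 ± 0.15, adjusted p = 4.7e-14).

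Dppa2 and Dppa4, neighbouring genes of chromatin factors active in pluripotent cells, had medians of 237 and 148 CPM in the pairs and 47.3 and 36.1 in the intact blastocysts (1.85 ± 0.19 and 1.82 ± 0.21). Tdgf1, a Nodal co-receptor, had 42.3 to 209 CPM in the pairs and 0 to 185 in the intact blastocysts, 6 of which held no count (1.77 ± 0.40). Gdf3, a Nodal-related ligand, was higher by 2.07 ± 0.36. Nanog, with medians of 47.4 and 25.98 CPM, Sox2, with 36.9 and 22.3, and Utf1, with medians of 64.6 CPM in the pairs and 34.0043 in the intact blastocysts, were higher by 0.71 ± 0.26, 0.80 ± 0.33 and 1.01 ± 0.32. Fgf4, the signal from epiblast to its neighbours (0.55 ± 0.38), and Esrrb (0.42 ± 0.37) did not pass. Nr0b1 (-2.40 ± 0.64), Sall4 (-0.57 ± 0.12) and Dppa5a (-0.36 ± 0.10) were lower. Several of these calls depended on the fit. With twin b alone Nanog (adjusted p = 0.115) and Sox2 (adjusted p = 0.0664) did not pass. Klf2, higher by 0.87 ± 0.32 with the pairs added, did not pass with twin a alone (adjusted p = 0.0709). Within 700000 to 1300000 counts Sox2 and Klf2 did not pass with either twin, nor did Nanog with twin b or Utf1 with twin a. Sox2 did not pass without the 6 shallowest intact blastocysts either. Of 8 epiblast markers, 6 were higher with the pairs added and 3 within that range with either twin. The whole list held 8 higher and 2 lower there with twin a, and 9 and 1 with twin b. In the fit with log10 total count 4 genes of the list were higher and none lower. There Nanog, Sox2 and Klf2 turned to -0.34, -0.035 and -0.40, and Utf1 (1.03), Tdgf1 (1.99) and Dppa2 (1.04) kept their direction, all 6 without passing.

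The trophectoderm list was split by gene. Of 25 tested, 16 were lower and 5 higher, with a median of -0.51. In the fits of added pairs, the excess of lower over higher genes was lost or nearly lost with either covariate. With log10 total count 6 were lower and 5 higher (median -0.08), and with detected genes 7 and 7 (median -0.12). Among all genes 8.52% were lower and 5.05% higher with log10 total count, and 12.9% and 8.74% with detected genes. The list's shares stayed above these in both directions. Cdx2, the factor that sets up the lineage, had 10.3 to 178 CPM in the intact blastocysts (median 63.2) and 138 to 252 in the pairs (median 178), a log2 fold change of 1.41 ± 0.17. The endocytic receptor gene Lrp2 (2.38 ± 0.24), the prostaglandin E synthase gene Ptges (1.27 ± 0.15) and Tead4 (0.66 ± 0.14), which acts upstream of Cdx2, were also higher. Eomes had 461 to 1246 CPM in the intact blastocysts and 199 to 403 in the pairs, without overlap (-1.08 ± 0.10). Tfap2c did not overlap either, at 144 to 774 and 83.9 to 135 CPM (-1.34 ± 0.15). Elf5, of the later trophoblast stem cell circuit, had medians of 185 and 83.7 CPM (-1.32 ± 0.16).

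The largest decrease in that list was in Krt19, a keratin of simple epithelium, with 27.9 to 369 CPM in the intact blastocysts (median 181) and 2.703 to 79.6 in the pairs (median 24.7), a log2 fold change of -3.00 ± 0.27. Tfap2a (-1.49 ± 0.14), Lgals3 (-1.51 ± 0.15), Efnb1 (-1.82 ± 0.25), Krt7 (-1.15 ± 0.17) and Gata3 (-0.68 ± 0.12) were lower as well. The main keratins of the wall did not pass in this fit: Krt8 had medians of 870 CPM in the intact blastocysts and 929 in the pairs (0.12 ± 0.09), and Krt18 had 1219 and 1223 (-0.18 ± 0.11). Krt8 was called higher with log10 total count (0.51) or detected genes (0.58) as covariate, within 700000 to 1300000 counts (0.27 with twin a, 0.31 with twin b), without the 7 intact blastocysts of few genes (0.22) and without the 6 shallowest (0.18). Krt18 changed sign among the alternatives and was called higher with log10 total count or detected genes as covariate. Gata3 turned to 0.17 with log10 total count as covariate, without passing.

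Of 19 primitive endoderm genes tested, 10 were lower and 1 higher, with a median of -1.13. Gata6, the first factor of the lineage, was higher, at 190 to 368 CPM in the pairs (median 274) and 13.04 to 417 in the intact blastocysts (median 181; log2 fold change 0.58 ± 0.18). Sox17 (-0.21 ± 0.35), Gata4 (-0.27 ± 0.39) and the receptor gene Pdgfra (0.26 ± 0.32) did not pass. Col4a1, a chain of type IV collagen, had 0 to 648 CPM in the intact blastocysts (median 340) and 25.7 to 256 in the pairs (median 104.2; -1.43 ± 0.31), and Lama1, a laminin chain, had medians of 270 and 115.1 (-1.25 ± 0.19). All 19 pairs lay below the intact median for both. Lamb1 (-1.13 ± 0.20), Foxa2 (-1.96 ± 0.54), Sox7 (-1.60 ± 0.50) and Cubn and Amn, which form an endocytic receptor together (-1.54 ± 0.41 and -1.73 ± 0.49), were lower too. None of the list passed with log10 total count as covariate and the median was -0.58, while within 700000 to 1300000 counts 8 were lower with twin a and 7 with twin b. With 1 twin of each pair and log10 total count, 5 were lower for twin a and 8 for twin b, and none was higher.

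**Figure D3:**
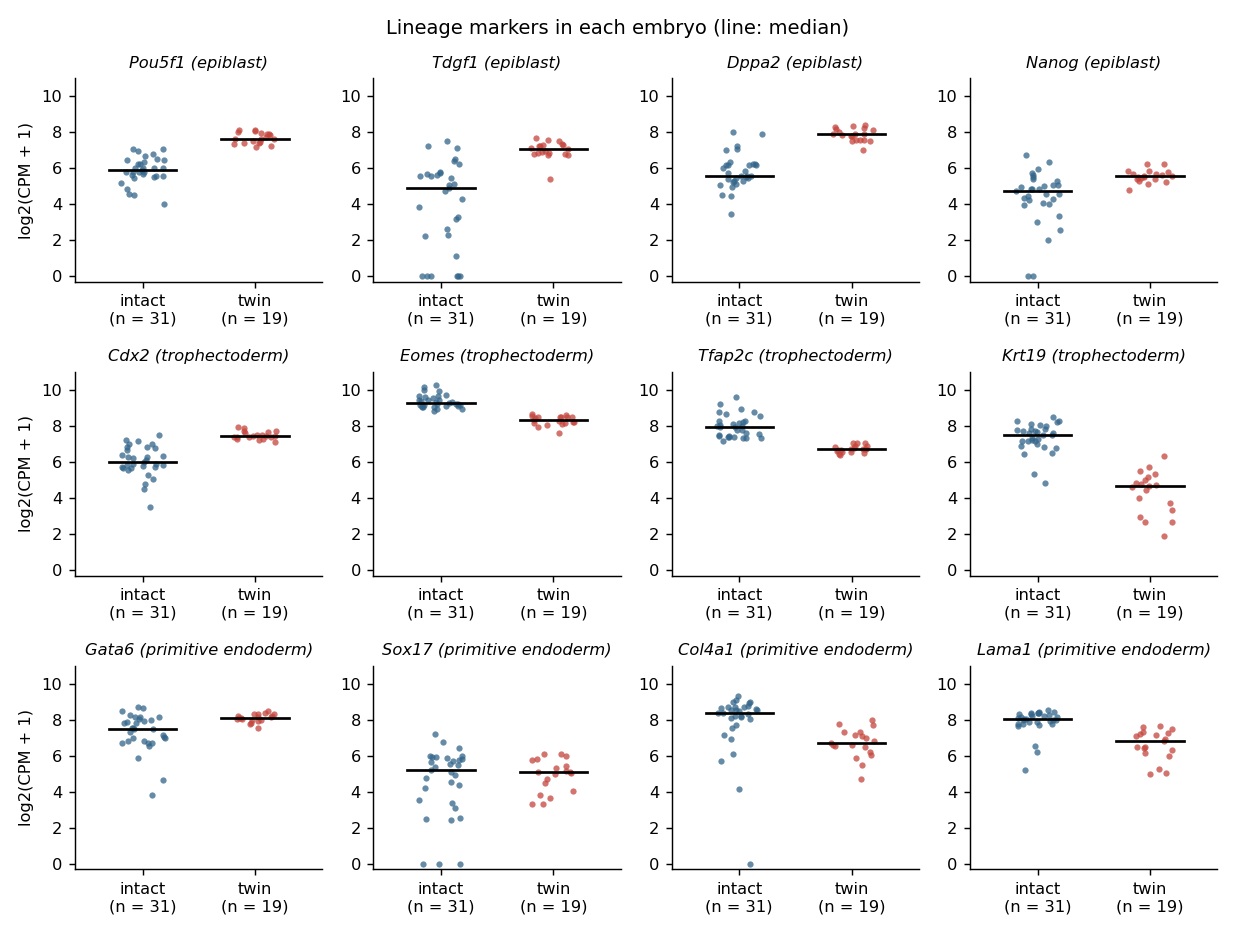
Levels of 12 lineage genes in each embryo, as log2(CPM + 1), with 31 intact blastocysts in blue, 19 twin pairs in red and the group median as a black line. Pou5f1, Eomes and Tfap2c do not overlap between the groups, Sox17 overlaps throughout, and several intact blastocysts hold no Tdgf1.

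Defining markers of other cells were at or near 0. Of 6 cumulus cell markers, Ptx3, Amh and Fshr held no count in any of the 50 embryos, and the 6 together summed to at most 0.55 CPM in a pair and 7.99 in an intact blastocyst. The 4 oocyte markers Gdf9, Bmp15, Zp3 and Oosp1 together summed to at most 9.15 CPM in a pair and 12.5 in an intact blastocyst, at or near 0 in both groups. Of 23 maternal oocyte transcripts listed, 4 were abundant enough to test, and 3 of them were higher in twins: Dppa3, and Khdc3 and Ooep of the subcortical maternal complex. Khdc3 had 642 to 982 CPM in the pairs and 36.6 to 663 in the intact blastocysts (1.41 ± 0.21), and Ooep was higher by 1.98 ± 0.33. None of the 3 passed with log10 total count as covariate, where 6 of the list were tested and none was called (median 0.37). With 1 twin of each pair and that covariate, 3 of the list were higher and none lower for twin a (median 0.995). The same counts were found for twin b (median 1.20). None of the 14 markers of blood and feeder cells was abundant enough to test.

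Most cell cycle genes tested were higher in twins. Of 28 genes of mitosis, 26 were higher and none lower, with a median log2 fold change of 0.84, and without the 7 intact blastocysts of few genes all 28 were higher. Ccnb2, a mitotic cyclin, had 9.03 to 132 CPM in the intact blastocysts (median 95.4) and 165 to 303 in the pairs (median 211), without overlap (1.53 ± 0.17, adjusted p = 4.1e-11). Cdc20, which activates the anaphase-promoting complex, had medians of 113 and 280 CPM, and 18 of 19 pairs lay above every intact blastocyst (1.33 ± 0.13). Birc5, the chromosomal passenger survivin, did not overlap (1.05 ± 0.14), and Kif20a, a kinesin of cytokinesis, changed most (2.505 ± 0.39). With log10 total count as covariate 5 of the 28 passed, all higher, and the median was 0.62. For 1 twin of each pair with that covariate, 16 were higher (twin a) and 13 (twin b), and none lower.

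Of 29 genes of replication licensing and DNA synthesis, 19 were higher and 2 lower, with a median of 0.60. Tk1, thymidine kinase, had medians of 74.2 CPM in the intact blastocysts and 217 in the pairs (1.41 ± 0.17), Gins1 of the replicative helicase was higher by 1.48 ± 0.20, and Gmnn, which restrains licensing, was higher without overlap (0.98 ± 0.16). The lower genes were the cyclins Ccnd2 and Ccnd1 (-2.44 ± 0.53), whereas Ccnd3 was higher (1.74 ± 0.22). With log10 total count as covariate this list held no higher and 1 lower gene, with a median of 0.14, while within 700000 to 1300000 counts it held 16 higher with twin a and 20 with twin b. For 1 twin of each pair with log10 total count, it held 8 higher and 2 lower (twin a) and 12 and 1 (twin b). H2afx, the histone variant marked at DNA breaks, had 147 to 276 CPM in the pairs and 6.55 to 152 in the intact blastocysts (2.25 ± 0.19), and the linker histone gene H1f0 rose by 1.80 ± 0.17.

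Promoters of genes on the mitosis and replication lists were read to show the elements that such genes are known for (RefSeq, GRCm38.p6, 250 bases before to 50 bases after each start site). The cell cycle homology region, TTTGAA or TTCAAA, stood in 16 of the 23 mitosis genes with a promoter in the table, against 20.2% of all 27025 genes. An E2F element, TTTNNCGC or GCGNNAAA, stood in 9 of 22 replication genes, against 5.93% of all genes. Both are matches of letters, not measured sites, and matches may overlap one another. Of the genes holding them, 14 of 16 and 6 of 9 were higher in twins. On the whole lists 26 of 28 and 19 of 29 were higher, and 19.9% among all genes. A link of either element with the change was not tested. The motif is in capitals in the windows shown, which were chosen as examples after the values were seen.
Cdc20, chr4:118437344-118437387, minus strand: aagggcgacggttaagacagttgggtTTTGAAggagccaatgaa
Cdk1, chr10:69352913-69352953, minus strand: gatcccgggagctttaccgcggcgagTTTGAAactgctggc
Ube2c, chr2:164769874-164769928, plus strand: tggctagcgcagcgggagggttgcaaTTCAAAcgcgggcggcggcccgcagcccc
Mcm6, chr1:128359719-128359778, minus strand: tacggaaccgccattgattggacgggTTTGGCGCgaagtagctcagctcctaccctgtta
Cdc6, chr11:98907987-98908046, plus strand: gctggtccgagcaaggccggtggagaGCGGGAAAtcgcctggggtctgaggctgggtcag

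Of 19 amino acid transporters tested, 16 were lower and none higher, with a median log2 fold change of -1.46. Slc7a8, a carrier of neutral amino acids (chromosome 14, 54722209 to 54781946), had the smallest p of all genes: 128.9 to 491 CPM in the intact blastocysts (median 246) and 19.5 to 83.1 in the pairs (median 34.1), without overlap (-2.59 ± 0.16, adjusted p = 1.2e-20). Slc1a1, a glutamate and cystine carrier, had medians of 419 and 112 CPM (-1.96 ± 0.13), and Slc6a14, a broad amino acid carrier, had 448 and 103 (-1.94 ± 0.14). Slc38a2 (-2.04 ± 0.22), Slc43a2 (-2.06 ± 0.32) and the cystine carrier Slc7a11 (-3.32 ± 0.60) were lower too. The fit with log10 total count held 7 lower and none higher.

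Atf4 is the transcription factor of the integrated stress response, and its targets make and import amino acids. Of 26 genes of that response tested, 22 were lower and none higher, with a median of -1.10. Atf4 itself was lower by 0.92 ± 0.16 on the log2 scale, and the serine synthesis gene Psat1 had 342 to 1210 CPM in the intact blastocysts and 232 to 515 in the pairs (-1.11 ± 0.11). Atf3 (-2.61 ± 0.50), Stc2 (-2.39 ± 0.42), Vldlr (-2.42 ± 0.45), Sesn2 (-1.03 ± 0.15) and the tRNA ligase genes Nars (-0.77 ± 0.10) and Gars (-0.70 ± 0.09) were lower as well. When log10 total count was a covariate 5 were lower and 1 higher, and within 700000 to 1300000 counts 20 were lower with twin a and 20 with twin b.

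The composite element bound by Atf4 with C/EBP factors, TGATGNAA or TTNCATCA, was found by its letters in the promoters of 9 of 24 listed genes, against 4.51% of all 27025 genes. Of these 9, 8 were tested and all 8 were lower in twins. On the whole list 22 of 26 were lower, and 21.8% among all genes. A link of the element with the change was not tested. The windows of 4 of these 8 genes are shown, with the element in capitals.
Atf3, chr1:191183410-191183469, minus strand: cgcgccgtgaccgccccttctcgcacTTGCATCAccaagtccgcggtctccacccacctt
Chac1, chr2:119351023-119351082, plus strand: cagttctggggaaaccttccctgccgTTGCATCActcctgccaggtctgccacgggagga
Nupr1, chr7:126625547-126625606, minus strand: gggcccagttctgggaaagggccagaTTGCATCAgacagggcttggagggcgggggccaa
Vldlr, chr19:27216794-27216853, plus strand: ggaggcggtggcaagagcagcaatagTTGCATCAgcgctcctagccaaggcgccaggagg
Chac1, which degrades glutathione, was lower by 1.27 ± 0.30 on the log2 scale, and Nupr1, a stress-induced chromatin protein gene, by 1.39 ± 0.18.

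In the unfolded protein response, 15 of 22 genes were lower and 1 higher, with a median of -0.76. Hspa5, the main chaperone of the endoplasmic reticulum, had 224 to 1259 CPM in the intact blastocysts (median 578) and 186 to 351 in the pairs (median 253; -1.30 ± 0.14), and Herpud1, of the pathway that degrades misfolded proteins, was lower by 1.56 ± 0.17 on the log2 scale. Of these, 6 were lower and none higher with log10 total count as covariate, and 7 and 1 with detected genes. The p53 list held 15 lower and 4 higher of 27, and 6 lower and 3 higher with log10 total count as covariate. Trp53inp1, a p53-induced regulator of autophagy and cell death, had 136 to 409 CPM in the intact blastocysts (median 257) and 22.6 to 95.3 in the pairs (median 50.1), without overlap (-2.28 ± 0.15, adjusted p = 6.0e-20). Mdm2, which targets p53 for degradation, had medians of 191 and 84.8 CPM (-1.21 ± 0.14), and Cdkn1a, which stops the cell cycle, was lower (-0.73 ± 0.14). Perp (1.49 ± 0.25), Sesn1 (1.36 ± 0.37), Tigar (0.73 ± 0.11) and Sat1 (0.32 ± 0.13) were higher. Of 16 Bcl2 family genes tested, 4 were lower (25.0%) and 2 higher (12.5%), beside 21.8% and 19.9% among all genes. Lower were the death-promoting members Hrk (-3.44 ± 0.50), Bbc3 (-2.10 ± 0.37) and Bak1 (-1.04 ± 0.42) and the survival gene Bcl2l1 (-0.78 ± 0.22). The death-promoting Bok (1.39 ± 0.25) and Bad (1.11 ± 0.19) were higher. With log10 total count as covariate the Bcl2 list held 2 lower and 3 higher.

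Imprinted genes, which are expressed from 1 parental copy and include regulators of placental growth, were mostly lower. Of 21 tested, 13 were lower and 4 higher, with a median of -1.30. Grb10, a growth restrainer, had 23.5 to 561 CPM in the intact blastocysts (median 224) and 3.76 to 50.6 in the pairs (median 21.3), with 11 of 19 pairs below every intact blastocyst (-3.29 ± 0.27, adjusted p = 1.1e-14). Igf2, a fetal growth factor, had medians of 147 and 44.3 CPM (-1.97 ± 0.22). Phlda2 (-3.33 ± 0.48), Ascl2 (-2.76 ± 0.58), Cdkn1c (-2.07 ± 0.54) and the noncoding RNAs Kcnq1ot1 (-2.17 ± 0.33) and H19 (-2.08 ± 0.43) were lower as well. Mest (3.07 ± 0.46), Snrpn (1.26 ± 0.22), Smoc1 (1.28 ± 0.37) and Gnas (0.64 ± 0.25) were higher. With log10 total count as covariate 5 were lower and none higher, with a median of -0.91.

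Xist, the noncoding RNA that silences an X chromosome and that is imprinted in the early embryo, was lower in twins (log2 fold change -1.87 ± 0.39) and remained so with sex as covariate (-1.89). Sex was read from Y-linked transcripts, and both twins of every one of the 19 pairs gave the same sex. In females, Xist ranged from 134 to 1334 CPM in 18 intact blastocysts (median 506) and from 108.04 to 295 in 9 pairs (median 170). In males it ranged from 11.7 to 719 in 13 intact blastocysts (median 204) and from 16.2 to 64.2 in 10 pairs (median 37.4). Of the intact males, 9 lay above 100 CPM, and no male pair did. The Y-linked genes Ddx3y, Eif2s3y and Uty did not pass. Xist did not pass with log10 total count as covariate (adjusted p = 0.52).

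Adhesion genes changed in both directions. Of 24 integrin, laminin and attachment genes, 10 were lower (41.7%) and 6 higher (25.0%), with a median of -0.36. Among all genes 21.8% were lower and 19.9% higher, so the higher share was near that of all genes. With log10 total count as covariate 6 were lower and 4 higher, beside 8.52% and 5.05% of all genes in that fit. Beside Itga7, the integrin subunit genes Itgb3 (-3.70 ± 0.67) and Itgav (-1.55 ± 0.22), whose products pair as a vitronectin receptor, were lower, as were Hbegf (-2.13 ± 0.30) and its receptor gene Egfr (-2.08 ± 0.65). Lgals1, a secreted lectin, had 953 to 1945 CPM in the intact blastocysts and 469.003 to 848 in the pairs, without overlap (-0.99 ± 0.09), and Basp1, a membrane cortex protein gene, did not overlap either (-2.17 ± 0.19). Itga3 (2.63 ± 0.36), the fibronectin gene Fn1 (2.16 ± 0.29) and Itgb5 (1.76 ± 0.29) were higher. Of the keratin and cytoskeleton list, 12 of 26 were lower and 2 higher (2 lower and 4 higher with log10 total count as covariate), with the myosin gene Myh9 and the actin gene Actb among the lower (-1.14 ± 0.13 and -0.82 ± 0.12). For 1 twin of each pair with that covariate, 5 of the list were lower and 3 higher (twin a) and 7 and 3 (twin b).

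The Hippo list, a pathway that reads cell position, held 4 higher and 6 lower of 21, the Fgf list 4 higher and 5 lower of 18, and the polarity list 5 higher and 3 lower of 18, with medians of 0.07, 0.13 and -0.10. Among all genes 19.9% were higher and 21.8% lower, and a departure of these lists from those shares was not tested. The Hippo list held 1 higher and 2 lower of 22 with log10 total count as covariate. In that fit the Fgf list held 1 and 1 of 20 and the polarity list 2 and 2 of 18. Of all genes in that fit 5.05% were higher and 8.52% lower. Within these lists, Tead3 (-3.97 ± 0.47) and Tead1 (-1.04 ± 0.15) were lower while Tead4 was higher. The Erk phosphatase gene Dusp4 was higher (2.16 ± 0.38) while Dusp6 was lower (-0.91 ± 0.19). Crb3, an apical polarity gene, had 100 to 168 CPM in the pairs and 7.54 to 91.7 in the intact blastocysts, without overlap (1.56 ± 0.19). Of 23 genes of the blastocoel pump, junctions and channels, 9 were lower, among them the tight junction gene Ocln (-1.21 ± 0.13) and the water channel gene Aqp3 (-0.64 ± 0.13), and 3 were higher. With log10 total count as covariate 2 of that list were lower and 3 higher.

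**Figure D4:**
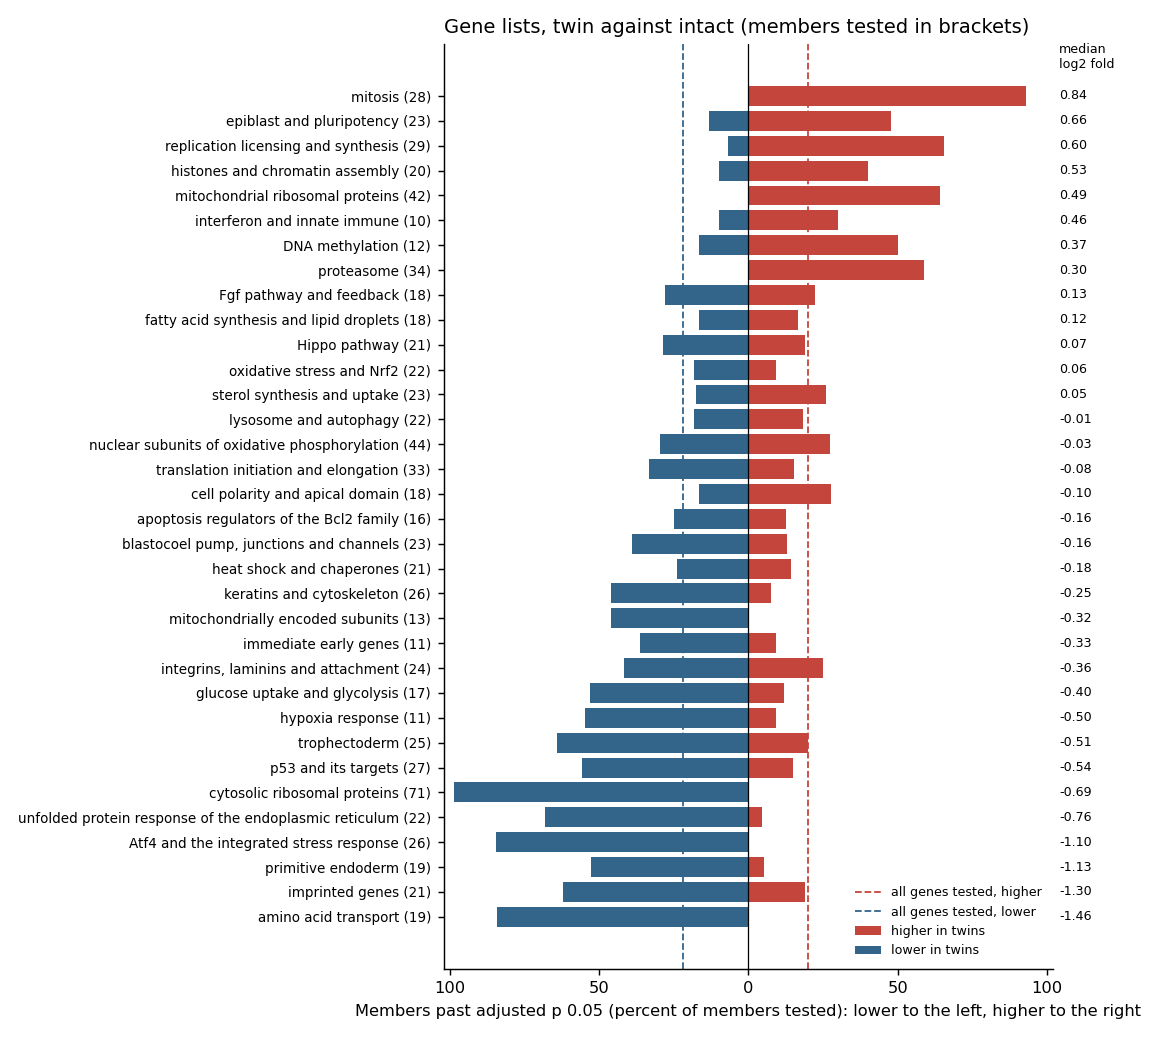
Share of the members tested in each of 34 gene lists with at least 10 genes tested that were higher (red, to the right) or lower (blue, to the left) in twins at an adjusted p of 0.05, ordered by the median log2 fold change at the right margin. Dashed lines give the shares over all genes tested, 19.9% higher and 21.8% lower. Mitosis heads the plot, with 26 of 28 higher, and amino acid transport ends it, with 16 of 19 lower.

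Of 71 cytosolic ribosomal protein genes, 70 were lower in twins and none higher, with a median of -0.69. The direction turned only in the fits of added pairs with log10 total count or detected genes as covariate. Rpl32 had 404 to 1576 CPM in the intact blastocysts (median 774) and 347 to 592 in the pairs (median 412; -0.94 ± 0.11). Within 700000 to 1300000 counts, where the twins stayed the deeper group, 43 were lower with twin a (median -0.29) and 55 with twin b (median -0.35), and none was higher. With log10 total count as covariate and the pairs added, 24 were higher and none lower, with a median of 0.37. With detected genes as covariate 8 were higher and none lower. With 1 twin of each pair and log10 total count, 20 were lower for twin a (median -0.19). For twin b 33 were lower (median -0.25), and none was higher with either twin. The part of depth in this result was not tested beyond these fits.

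Mitochondrial ribosomal protein genes differed in the other direction, with 27 of 42 higher, none lower and a median of 0.49. Mrpl17 had 65.2 to 307 CPM in the intact blastocysts (median 159) and 293 to 435 in the pairs (median 338; 1.00 ± 0.12). Of 34 proteasome genes, 20 were higher and none lower (median 0.30), and Psmc4, an ATPase of the cap, had medians of 154 and 295 CPM (0.91 ± 0.10). The proteasome list held 16 higher and none lower with log10 total count as covariate, the mitochondrial ribosomal list held 6 higher and 1 lower (median 0.20), and with detected genes the latter held 12 higher and 1 lower. The 13 protein genes of the mitochondrial genome held 6 lower and none higher (median -0.32), with mt-Co3 at 1859 to 5567 CPM in the intact blastocysts and 1269 to 2606 in the pairs (-0.71 ± 0.09). The share of all counts from that genome was 1.44 ± 0.157% (SD, n = 19) in the pairs and 1.80 ± 0.485% (SD, n = 31) in the intact blastocysts (2-sided permutation test over all sites, adjusted p = 0.00158). Within Co the shares were 1.541% in the pairs and 1.504% in the intact blastocysts, within Is 1.43% and 1.95%, and within Eq 1.36% and 1.98%, so the lower mean share in pairs was seen in Is and Eq and not in Co. The list's median log2 fold change was 0.01 within Co, -0.47 within Is and -0.57 within Eq. The 44 nuclear subunits of the same complexes held 12 higher and 13 lower (27.3% and 29.5%, beside 19.9% and 21.8% among all genes).

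In metabolism, 9 of 17 glucose uptake and glycolysis genes were lower and 2 higher, with a median of -0.40, but 1 was lower and 2 higher with log10 total count as covariate. For 1 twin of each pair with that covariate, 6 were lower and 2 higher (twin a) and 4 and 2 (twin b). Ldha, lactate dehydrogenase (-1.21 ± 0.27), Pfkp, phosphofructokinase (-1.76 ± 0.30), and the monocarboxylate carrier gene Slc16a1 (-0.72 ± 0.12) were lower and Aldoa (0.35 ± 0.08) was higher. Hypoxia response genes held 6 lower and 1 higher of 11 (2 lower and none higher with that covariate), with Ndrg1 at medians of 720.0 and 323 CPM (-1.19 ± 0.11) and Vegfa lower (-1.36 ± 0.21). The sterol list held 6 higher and 4 lower of 23, the fatty acid list 3 and 3 of 18, the lysosome and autophagy list 4 and 4 of 22, and the Nrf2 list 2 and 4 of 22. Among all genes 19.9% were higher and 21.8% lower. Elovl6, which lengthens fatty acids, had 481 to 612 CPM in the pairs and 96.0 to 602 in the intact blastocysts (0.92 ± 0.11). Heat shock and chaperone genes held 3 higher and 5 lower of 21 (median -0.18), but this balance depended on the fit. Without the 7 intact blastocysts of few genes 7 were higher and 6 lower. Within the bounded range of counts 9 were higher and 5 lower with twin a, and 7 and 5 with twin b. With log10 total count as covariate 5 were higher and 3 lower (median 0.23), and with detected genes 8 and 4 (median 0.26). After thinning 3 of 20 were higher and 5 lower. In that list Hspa1b, a gene that shares reads with a near-identical copy, was lower (-2.60 ± 0.42). Of the other lists, histones and chromatin assembly held 8 higher and 2 lower of 20, DNA methylation 6 and 2 of 12, translation initiation and elongation 5 and 11 of 33, immediate early genes 1 and 4 of 11, interferon genes 3 and 1 of 10, and 2-cell stage activation genes 1 and 2 of the 4 tested. The median of the translation list turned from -0.08 to 0.29 with log10 total count as covariate.

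**Figure D5:**
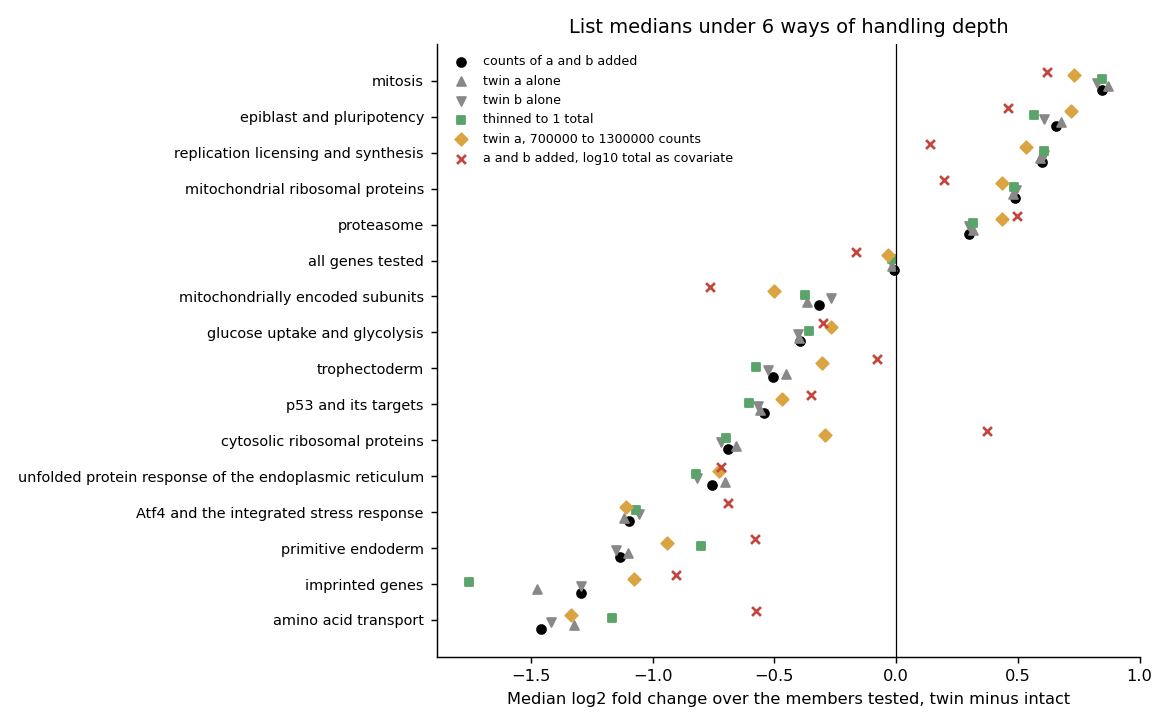
Median log2 fold change over the members tested of 15 gene lists and of all genes tested, under 6 ways of handling depth. The 15 lists were picked by hand. Among them only the median of the cytosolic ribosomal proteins changes sign, from -0.69 to 0.37 (red cross) for added pairs with log10 total count as covariate. The medians of the other plotted lists keep their sign in all 6, though that of trophectoderm shrinks from -0.51 to -0.08 with that covariate. Medians of several lists not plotted change sign with it, among them heat shock and chaperones (-0.18 to 0.23), translation (-0.08 to 0.29) and Hippo (0.07 to -0.33).

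Whether bisection differed by ICSI site was tested next. No gene of 10689 passed for an interaction of bisection and site (edgeR quasi-likelihood test; 246 had p below 0.05 before adjustment). DESeq2 also called none, of 9985, and 302 had p below 0.05 before adjustment. Within Co 877 genes were higher (8.2%) and 1029 lower (9.63%), within Is 563 (5.27%) and 597 (5.59%), and within Eq 591 (5.53%) and 861 (8.06%). Of the 4163 genes called over all sites, 4116 had the same sign in all 3. They were called from these same embryos together, so this agreement was largely set in advance, and the share over all genes was not counted. Slc7a8 was lower by 2.83, 2.41 and 2.45 on the log2 scale in Co, Is and Eq, Pou5f1 was higher by 1.82, 1.72 and 1.63, and Ctsll3 had log2 fold changes of -7.42, -8.31 and -6.35.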

How the data were processed

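Single blastocysts had been sequenced from full-length SMART-Seq cDNA as 100-base single-end reads. The deposited table holds whole-number counts per gene, which the authors made with Trimmomatic (version given as 039), FastQC 0.12.1 and STAR 2.7.10b in its SmartSeq mode, without strand and without molecular identifiers, on GRCm38 with GENCODE M23, after leaving out specimens with few detected genes. The study's options named both exact removal of duplicate reads and no removal. Which of these gave the deposited counts was not found in the sources used here. If duplicates were removed, thinning the counts afterwards would not undo it. Counting without strand means that overlapping and antisense genes share reads, and near-identical copies (cathepsin, Hspa1, histone, ribosomal protein and H2 genes) are uncertain.

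Here the counts of twins a and b were added, and edgeR 4.0.16 (R 4.3.3; TMM scaling, filterByExpr, robust quasi-likelihood F test, Benjamini-Hochberg adjustment over all genes tested, threshold 0.05) was fitted to 19 pairs and 31 intact blastocysts with ICSI site as covariate. CPM are counts relative to the TMM-scaled total. SE is the absolute log2 fold change divided by the root of F. Alternatives were limma 3.58.1 (voom, embryo as random block, correlation 0.187), DESeq2 1.42.0, a rank-sum test on TPM as in the study's methods (pseudocount 0.5 for fold changes), 1 twin alone, thinning, and depth, detected genes or sex as covariate. Gene positions came from GENCODE M21 on GRCm38. The test was checked on simulated counts with the real library sizes. In these, both groups shared 1 mean profile, apart from genes set to change, and 1 spread for each gene. Unequal spread between the groups was therefore not covered.

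The members and the 38 gene lists were chosen with earlier results of these data known. Named were the 12 largest changes each way that passed in the same direction with twin a, with twin b and after thinning, with at least 20 CPM where higher and without predicted genes and pseudogenes, lineage and sex markers, up to 3 members of each list with the smallest p, and up to 5 genes for the interaction. Other list members given beside them were chosen after their values were seen. Embryos are the replicates, and which culture day each came from was not used here. Ranges of CPM and of counts run from the lowest to the highest embryo of a group.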

Additional observations from a re-analysis of the deposited data

Results flagged for a closer look

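A single embryo stood apart from the others of its group and ICSI site 23 times (Dixon's test, groups of 6 to 8) among tests made for the library measures and the 24 genes with the largest differences. Chance flags about 1 in 20 groups. Levels are normalised CPM, and embryos are given by group and ICSI site. For Mgarp the level was 4.658 in 1 intact Is blastocyst. For Aldh1l1 the level was 151.4 in 1 twin Is pair. For Ceacam10 the level was 96.81 in 1 twin Co pair and 10.4 in 1 intact Is blastocyst. For Tbx20 the level was 101.9 in 1 twin Co pair. For Dppa3 the level was 304.9 in 1 twin Is pair. For Chga the level was 19.41 in 1 intact Is blastocyst. For Ctsll3 the level was 10.23 in 1 twin Is pair. For S100a9 the level was 1.167 in 1 twin Co pair. For Slc40a1 the level was 33.88 in 1 twin Is pair and 33.45 in 1 twin Eq pair. For Ccnd2 the level was 7.223 in 1 twin Co pair, 7.134 in 1 twin Is pair, 2.747 in 1 twin Eq pair and 115.9 in 1 intact Is blastocyst. For Cmklr1 the level was 10.69 in 1 twin Is pair. For Stmn2 the level was 11.68 in 1 twin Co pair and 8.183 in 1 twin Is pair. For Snap91 the level was 59.03 in 1 twin Eq pair. For Nefl the level was 7.785 in 1 twin Co pair. For Tsc22d3 the level was 8.064 in 1 twin Co pair, 8.854 in 1 twin Eq pair and 68.17 in 1 intact Is blastocyst. The cause was not tested.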

How the results depend on the processing

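Of 9985 genes tested, 4163 were called. The count was 6385 without a filter on low counts, 1483 with log10 total count as covariate, 2431 with detected genes as covariate, and 2338 and 2555 with twin a and twin b alone and log10 total count. For added pairs with log10 total count, 834 of the 4163 calls were shared in the same direction and 64 were called in the opposite one. There 75.6% of the 4163 kept their sign. With detected genes 1381 were shared, 49 were called in the opposite direction and 82.6% kept their sign. Neither the total counts nor the detected genes of added pairs and intact blastocysts overlapped. Depth or detected genes could therefore hardly be separated from group in the fits of added pairs with either covariate. The share of calls that were higher was 47.7% in the reported fit, 37.2% with log10 total count, 65.7% when TPM were compared by ranks and 58.6% with all 38 twins by voom. The 3 alternatives, without the 7 intact blastocysts of few genes and with twin a or b at 700000 to 1300000 counts, were chosen after seeing the data. Over 156 named genes tested, 2574 of 2774 values kept direction and side of the threshold, 145 lost the call, 14 gained it and 41 changed sign. Under the setting 38 twins, voom, embryo block, the log2 fold changes that changed sign were Ddx3y 0.11, Eif2s3y 0.071. Under the setting detected genes as covariate, the log2 fold changes that changed sign were Fgf4 -0.15, Esrrb -0.77, Gata3 0.081, Krt18 0.68, Eif1 0.034, B2m -0.33, Ifitm2 -0.046, Eif2s3y 0.43, Abo -0.47, Plac8 -0.12. Under the setting log10 total count as covariate, the log2 fold changes that changed sign were Nanog -0.34, Sox2 -0.035, Klf2 -0.40, Gata3 0.17, Krt18 0.75, Sox17 0.35, Gata4 0.063, Wwc1 0.027, Hspa9 0.14, Rps27 0.13, Rpl23 0.084, Eif3c 0.11, Eif1 0.12, Npm1 0.080, Dnmt3l 0.38, B2m -0.092, Star 0.86. Under the setting twin a alone, depth window, the log2 fold changes that changed sign were Krt18 0.12, Sox17 0.21, Plac8 -0.069. Under the setting twin a alone, log10 total count as covariate, the log2 fold changes that changed sign were Krt18 0.26. Under the setting twin b alone, depth window, the log2 fold changes that changed sign were Krt18 0.14, Sox17 0.46. Under the setting twin b alone, log10 total count as covariate, the log2 fold changes that changed sign were Krt18 0.24, Sox17 0.14, Gata4 0.094, Star 0.040. Under the setting without intact blastocysts of few genes, the log2 fold changes that changed sign were Krt18 0.050. Under the setting without shallow intact blastocysts, the log2 fold changes that changed sign were Krt18 0.011. The cause was not tested. No paired analysis was possible because twin and intact blastocysts share no embryo number.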
